A study of Homo sapiens with 12 samples.

Results

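The genes described here build the meiotic chromosome: SYCP1, SYCP2, SYCP3, SYCE1, SMC1B, STAG3, REC8, DMC1, SPO11 and HORMAD1. They were chosen by name, for what their proteins do, with earlier results of these data known. All 10 were on the array, where 13 of the 50599 probes carried their names (10 of 34423 listed gene names, many of which are transcript identifiers). STAG3 had 3 probes, HORMAD1 had 2 and each of the others had 1. For each gene the value given first is that of its brightest probe on average over the arrays.

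During meiosis, sister chromatids are held by a cohesin ring in which REC8, STAG3 and SMC1B take the places of subunits used in mitosis. SYCP2, SYCP3 and HORMAD1 load onto this scaffold as the chromosome axis, SPO11 cuts the DNA, DMC1 carries out strand exchange with the homologous chromosome, and SYCP1 and SYCE1 zip the axes together in the synaptonemal complex. These genes are silent in most somatic tissues, and DNA methylation at CpG-rich promoters is one of the layers known to keep germline genes silent.

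The arrays measured total RNA from Colo320DM, a colorectal cancer cell line. The study compared 3 clones transfected with the pcDNA6.2-GW/EmGFP-miR-neg negative control plasmid with 3 clones transfected with vectors against TET1, a dioxygenase that oxidises 5-methylcytosine. All clones were selected in G418, and every clone was measured once without drug (mock) and once after 72 h in 5-aza-dC at 1 μM (5-aza-2'-deoxycytidine, a nucleoside that traps DNA methyltransferases), with drug and medium renewed daily, which gave 12 one-colour Agilent arrays. All clones derive from 1 cell line, each stands for its own isolate, and the spread given is that between clones. By the study's account knockdown clones 1 and 2 carried one of its 2 vectors against TET1 and clone 3 the other, which the array labels do not record. As each array measured RNA from a whole culture, more expressing cells and more RNA per cell cannot be told apart.

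Values are processed signals on a log2 scale with the 75th percentile of each array set to 0, so that a value of 2 lies 4 times above that percentile. A probe counted as detected on an array where the scanner software marked it well above background, and a probe was tested in a comparison where that held on at least 3 of its arrays. On each array 45.7% to 52.9% of probes passed that mark, the 75th percentile lay between 240.7 and 359.0 signal units, and no spot was saturated. The arrays came from 2 slides: slide 1 held 7 arrays, those of mock controls 1 and 2, of every knockdown clone without drug, and of knockdown clones 1 and 3 with it, and slide 2 held the other 5. The first principal component, with 43.2% of the variance, separated the slides. The labelled origin was checked against its markers. Of 8 colorectal epithelial markers, CDX2, KRT8, KRT18 and KRT20 were well above background on all 12 arrays and EPCAM on 4 of the 6 mock arrays. KRT19 was not well above background on any mock array, VIL1 was on 1 of the 12 arrays and CDH1 on none.

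TET1 itself was measured by 3 probes. In the mock knockdown clones its signal was 52.6%, 39.2% and 47.4% of that in the mock control clones, and after 5-aza-dC it was 62.9%, 29.6% and 47.7%. By the brightest probe, treated knockdown clone 2 (4.31) lay within the treated control clones (4.06 to 4.42), while clones 1 and 3 read 2.98 and 3.35. By the other probes all treated knockdown clones lay below the treated control clones. No probe of TET1 passed the test after adjustment over all probes (limma, Benjamini-Hochberg adjusted p of 0.276, 0.242 and 0.395 in mock clones, and 0.335, 0.125 and 0.132 after treatment).

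Promoter sequences of 9 of the 10 genes were in the RefSeq table used (GRCh38.p14, 250 bases before to 50 bases after the start site); HORMAD1 was not among them. Those of SYCP3 and REC8, which were called higher with 5-aza-dC, are shown with that of STAG3, called higher by 2 of its 3 probes but not by the brightest, that of SYCP1, which was tested and not called, and that of DMC1, the one member without the letters searched. Capitals mark TCCCGC or its reverse complement GCGGGA, the core letters of sites bound by E2F factors, which include E2F6, a repressor of germline genes in somatic cells.
SYCP3: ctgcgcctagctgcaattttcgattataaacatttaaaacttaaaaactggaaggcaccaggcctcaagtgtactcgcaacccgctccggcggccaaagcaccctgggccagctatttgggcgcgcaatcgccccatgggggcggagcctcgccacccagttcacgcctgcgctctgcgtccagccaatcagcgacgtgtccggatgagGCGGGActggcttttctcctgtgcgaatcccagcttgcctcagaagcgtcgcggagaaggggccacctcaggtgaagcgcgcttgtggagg
REC8: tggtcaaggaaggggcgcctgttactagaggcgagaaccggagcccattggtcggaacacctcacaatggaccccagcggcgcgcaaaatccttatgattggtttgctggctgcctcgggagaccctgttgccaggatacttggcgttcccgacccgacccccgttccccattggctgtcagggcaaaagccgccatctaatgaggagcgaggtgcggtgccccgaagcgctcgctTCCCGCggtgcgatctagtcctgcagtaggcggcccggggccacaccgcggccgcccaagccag
STAG3, first start site: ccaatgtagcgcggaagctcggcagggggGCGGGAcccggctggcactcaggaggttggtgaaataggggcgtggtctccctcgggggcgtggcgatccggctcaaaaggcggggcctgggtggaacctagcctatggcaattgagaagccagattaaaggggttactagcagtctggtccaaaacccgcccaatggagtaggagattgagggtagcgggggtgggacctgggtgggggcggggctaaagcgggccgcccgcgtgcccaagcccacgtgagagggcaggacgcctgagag
STAG3, second start site: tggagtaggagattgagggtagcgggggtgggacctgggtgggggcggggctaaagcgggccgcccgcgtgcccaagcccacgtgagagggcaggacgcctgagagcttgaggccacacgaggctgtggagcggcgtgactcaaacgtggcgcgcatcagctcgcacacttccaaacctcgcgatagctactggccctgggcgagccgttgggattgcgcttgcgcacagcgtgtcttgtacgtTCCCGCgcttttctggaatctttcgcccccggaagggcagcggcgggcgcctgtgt
SYCP1: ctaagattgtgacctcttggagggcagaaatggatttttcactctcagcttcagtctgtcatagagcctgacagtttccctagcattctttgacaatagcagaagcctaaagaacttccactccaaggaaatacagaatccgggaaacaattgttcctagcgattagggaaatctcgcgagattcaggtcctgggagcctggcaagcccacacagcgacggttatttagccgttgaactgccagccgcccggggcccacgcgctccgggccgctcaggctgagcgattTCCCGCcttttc
DMC1: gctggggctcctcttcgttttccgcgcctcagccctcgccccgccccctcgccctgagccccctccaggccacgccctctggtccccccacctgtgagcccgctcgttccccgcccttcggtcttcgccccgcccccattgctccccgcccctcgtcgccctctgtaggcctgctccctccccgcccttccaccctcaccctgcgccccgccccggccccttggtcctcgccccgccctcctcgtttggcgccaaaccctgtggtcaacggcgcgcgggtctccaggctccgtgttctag

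The sequences read 5′ to 3′ on the strand of the gene. SYCP3 lies on the minus strand (chr12:101739413-101739712), REC8 on the plus strand (chr14:24171830-24172129), STAG3 on the plus strand with windows at chr7:100177474-100177773 and chr7:100177668-100177967, SYCP1 on the plus strand (chr1:114854613-114854912) and DMC1 on the minus strand (chr22:38570134-38570433). TCCCGC or GCGGGA was in the promoter of 8 of the 9 genes, against 26.9% of all 35116 promoters in the table, and DMC1 was the exception. In SYCP3 the letters began 41 bases before the start site, in REC8 14 bases before, at the second start site of STAG3 6 bases before, and in SYCP1 38 bases after it. A 7-letter version that contains it, TTCCCGC or GCGGGAA, which was added after the promoters had been read, was in 7 of the 9 genes and in 6.55% of all promoters. The E-box CACGTG was in STAG3 and SYCE1 and in 7.26% of the table. CG dinucleotides, the sites of DNA methylation, numbered from 15 in SYCP1 to 41 in SYCP2 across the 11 promoter entries of these genes, against a median of 14 over the table. Since TCCCGC holds a CG itself, the share was also taken over the 17186 promoters with at least 15 of them, and it was 47.5% (11.5% for the 7-letter version). These counts describe the letters and no methylation was measured on these arrays.

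Before treatment the arrays detected few of these genes. On a mock array 2 or 3 of the 10 were detected and on a treated array 4 to 6. STAG3 and REC8 were detected on all 12 arrays, SYCP3 and HORMAD1 on all 6 treated arrays and on no mock array. SYCP1 was detected on 3 mock arrays and 1 treated array. SYCE1 was detected in treated control clones 1 and 2, and SMC1B in treated knockdown clones 1 and 3. DMC1, SPO11 and SYCP2 stayed below that mark throughout.

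**Figure D1:**
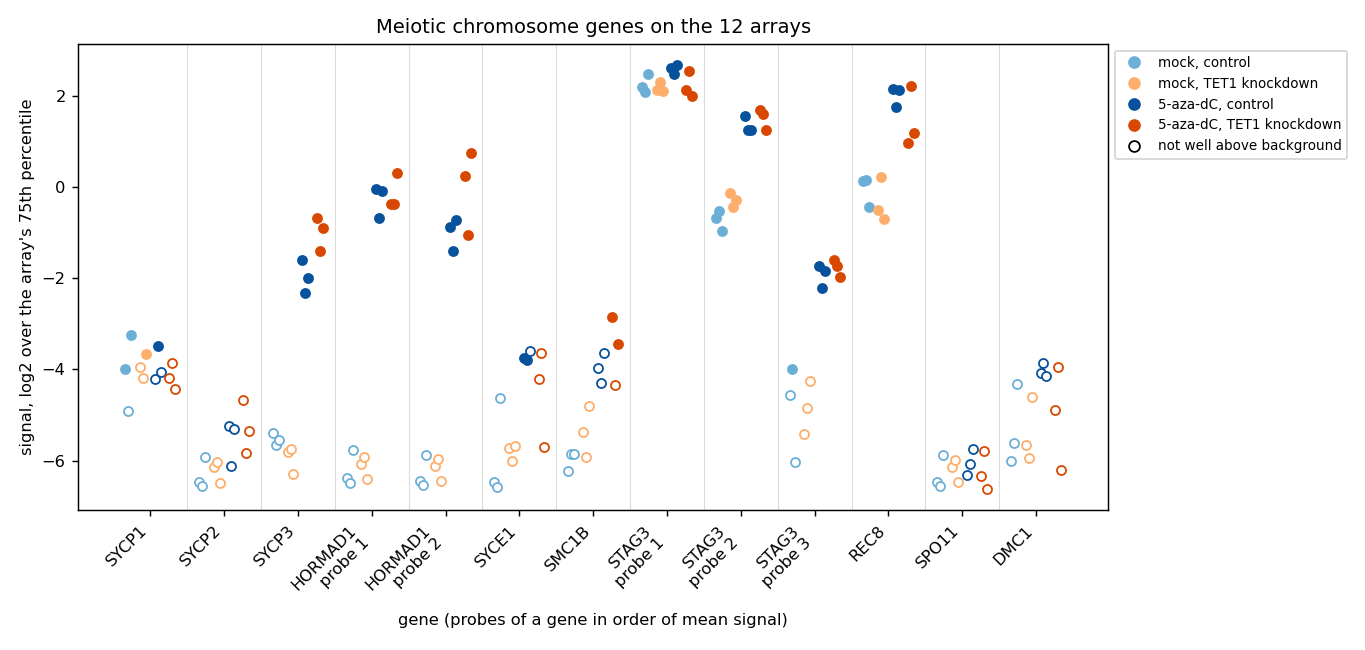
Signal of the 13 probes on the 12 arrays (vertical axis, log2 over the array's 75th percentile), with one column per probe and colours for the 4 groups; open points were not well above background. SYCP3 and both HORMAD1 probes move from open points below -5 in mock clones to filled points above -2.5 after 5-aza-dC, REC8 and STAG3's second probe rise from a filled level, and SYCP2, SPO11 and DMC1 have open points in all groups.

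The first comparison asked how these genes responded to 5-aza-dC over all 6 clones. Of the 10 genes, 5 were tested, and 3 of them rose: HORMAD1, SYCP3 and REC8 (limma, adjusted p under the threshold of 0.05). Over all 27281 probes tested, 13.2% were called, and 7.29% were called higher. STAG3 and SYCP1, the other members tested, were not called by their brightest probes. HORMAD1 and SYCP3 passed the filter only through their treated arrays, and the 5 members not tested were well above background on fewer than 3 arrays, so the tested members do not stand for all 10. The same 3 genes were called when any 1 of the 6 clones was left out.

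The axis gene HORMAD1 encodes a HORMA-domain protein that marks unsynapsed chromosome axes and is also known as a cancer/testis antigen. Its brightest probe (hg19, chr1:150679219-150679278) read -6.37, -6.50 and -5.77 in mock control clones 1, 2 and 3, and -6.08, -5.92 and -6.41 in the mock knockdown clones, all without being well above background. After 5-aza-dC it read -0.03, -0.68 and -0.09 in the control clones and -0.38, -0.37 and 0.30 in the knockdown clones. The lowest treated array lay far above the highest mock array, and no array of one condition overlapped the other. Because the mock level was below background, the increase is given as a bound, and the adjusted p beside a bound is that of the fitted difference. HORMAD1 was at least 13.8-fold higher over all clones (limma adjusted p = 5.9e-08), at least 13.9-fold in control clones and at least 13.7-fold in knockdown clones. Its second probe (chr1:150675852-150676635, an interval longer than the 60-base probe) gave at least 11.3-fold over all clones, with adjusted p = 7.5e-07.

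SYCP3 is the main structural protein of the axial and lateral elements. Its probe (chr12:102128796-102130847 in hg19) read -5.39, -5.66 and -5.56 in mock control clones and -5.80, -5.76 and -6.29 in mock knockdown clones, not well above background on any of them. After 5-aza-dC it was detected on every array, at -1.61, -2.32 and -2.00 in control clones and at -0.68, -1.39 and -0.90 in knockdown clones. The 2 conditions did not overlap, and the treated knockdown clones all lay above the treated control clones. The increase was at least 5.71-fold over all clones (adjusted p = 2.2e-07), at least 4.26-fold in control clones and at least 7.64-fold in knockdown clones. SYCP2, the partner of SYCP3 in the lateral element, ranged from -6.56 to -4.67 and was below background throughout, so no change could be measured for it.

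**Figure D2:**
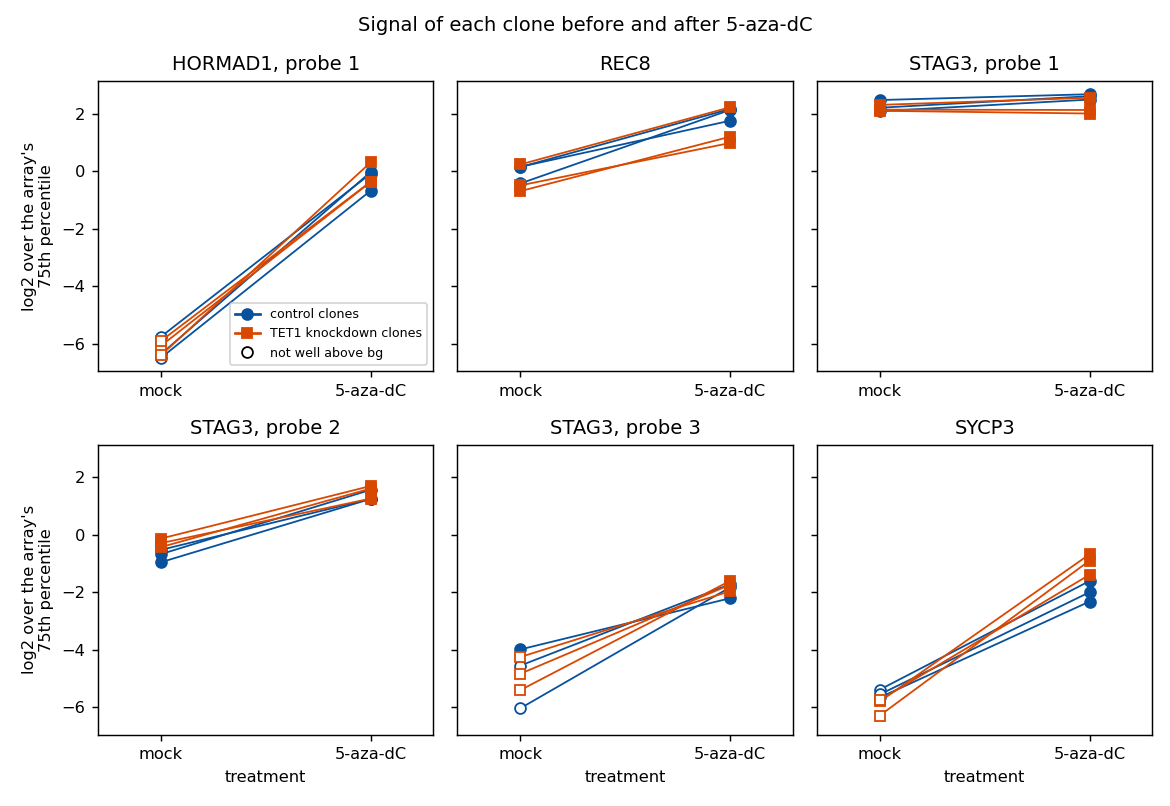
Signal of each clone without drug and after 5-aza-dC (vertical axis, log2 over the array's 75th percentile; lines join the arrays of a clone; open points were not well above background) for HORMAD1, REC8, SYCP3 and the 3 STAG3 probes. All 6 lines rise for HORMAD1, SYCP3, REC8 and probes 2 and 3 of STAG3, and they stay between 2.01 and 2.68 for the first STAG3 probe.

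Among the meiotic cohesin genes, REC8, the kleisin subunit that is cleaved at the meiotic divisions, was already detected in mock clones. Its probe (chr14:24649400-24649459 in hg19) read 0.14, 0.15 and -0.43 in mock control clones and -0.50, 0.23 and -0.70 in mock knockdown clones. After treatment it read 2.16, 1.75 and 2.13 in control clones and 0.98, 2.22 and 1.20 in knockdown clones. Every clone rose, and the lowest treated value of either arm lay above the highest mock value. The change over all clones was 1.92 ± 0.25 on the log2 scale (SE of the unpaired fit, n = 6 clones per condition, limma adjusted p = 0.00067), a 3.80-fold increase.

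STAG3, the meiotic counterpart of STAG1 and STAG2, was read differently by its probes. The interval listed for its brightest probe (chr7:99780378-99780428) spans 51 bases, shorter than the 60-base probe. Those listed for the other STAG3 probes span 60 bases each. Where the remaining bases of the brightest probe match was not tested. The 3 probes are shown by their first 30 bases, since the result turns on which probe is read; the first (chr7:99780378-99780428 in hg19) lies 30991 bases before the third (chr7:99811369-99811428), which lies 543 bases before the second (chr7:99811912-99811971).
STAG3, the first probe: gtcccaagcggtacatcgtcatagccggaa
STAG3, the second probe: tggaaatagcccatagtctcctggattttt
STAG3, the third probe: ctactcttccaccagtgagcgcgggctgga

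The first probe read 2.21, 2.08 and 2.47 in mock control clones and 2.14, 2.31 and 2.10 in mock knockdown clones, and 2.61, 2.49 and 2.68, and 2.13, 2.55 and 2.01, after treatment. The groups overlapped in the knockdown clones, and the change over all clones was 0.19 ± 0.13 (SE, limma adjusted p = 0.342), with a 95% interval from -0.11 to 0.49; it turned to -0.05 with the array median as the scale and to -0.01 with slide as a block. The second probe rose from between -0.96 and -0.53 in mock control clones and between -0.43 and -0.13 in mock knockdown clones to 1.56, 1.25 and 1.25 in treated control clones and 1.70, 1.61 and 1.26 in treated knockdown clones. Its change was 1.94 ± 0.14 over all clones (adjusted p = 8.4e-06), with no overlap between the conditions. The third probe was well above background on 1 of the 6 mock arrays, where the 6 values ran from -6.04 to -3.99, and on all treated arrays, where they ran from -2.21 to -1.60, a change of 3.00 ± 0.33 (adjusted p = 0.000199). The RefSeq table lists the pseudogene copies STAG3L1, STAG3L2, STAG3L3, STAG3L4 and STAG3L5P and, beside STAG3, CASTOR3P, whose former names include STAG3OS. Signal of STAG3 and of these copies could not be told apart by name alone. STAG3L4 had a probe of its own, which changed by 0.02 ± 0.14 over all clones (adjusted p = 0.940).

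SMC1B, the meiotic counterpart of SMC1A, was below background in all mock clones and was detected at -2.85 and -3.44 in treated knockdown clones 1 and 3, with treated knockdown clone 2 and the treated control clones between -4.33 and -3.64. It had too few detected arrays to be tested. SYCE1, a central element protein, was detected at -3.75 and -3.80 in treated control clones 1 and 2 and ranged from -6.57 to -3.60 elsewhere. SYCP1, the transverse filament protein that bridges the axes, was tested and showed no call. Its values ran from -4.90 to -3.25 in mock clones and from -4.43 to -3.49 in treated clones. The change over all clones was -0.05 ± 0.27 (limma adjusted p = 0.918, 95% interval from -0.64 to 0.55). Only 3 mock arrays and 1 treated array were well above background for SYCP1, so this interval describes signal near background. Of the recombination genes, SPO11, the catalytic subunit of the enzyme that makes the double-strand breaks, stayed between -6.63 and -5.75, and DMC1, the meiotic recombinase, between -6.21 and -3.85, both below background on all 12 arrays.

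**Figure D3:**
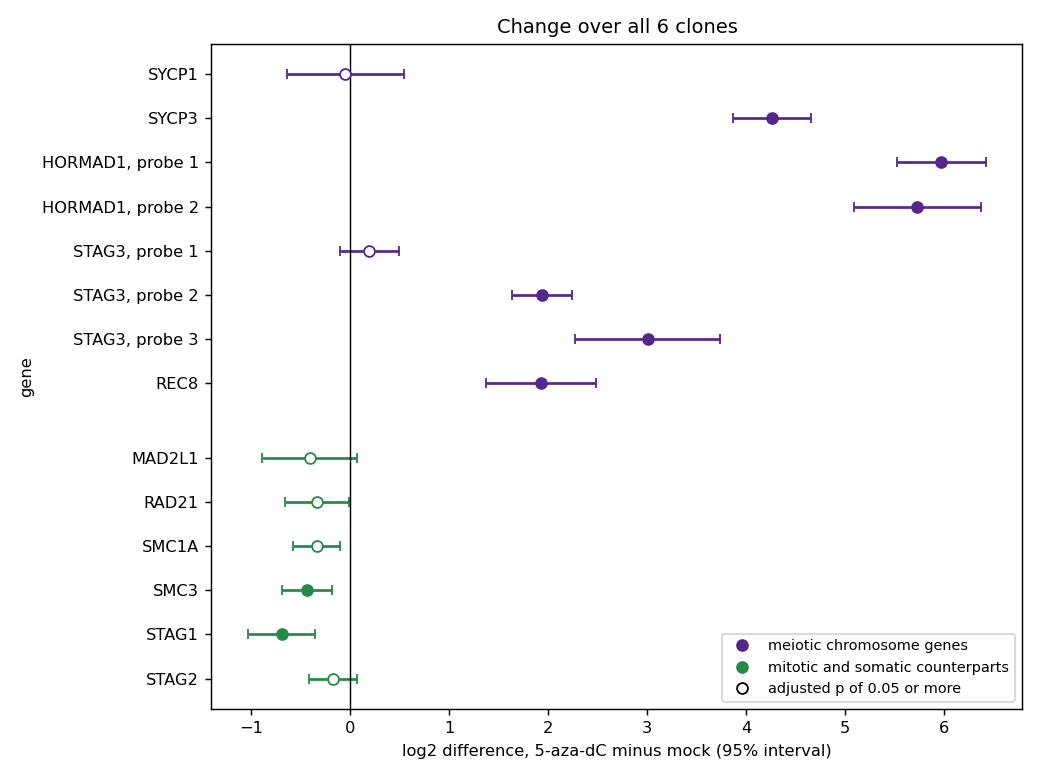
Log2 difference between 5-aza-dC and mock over all 6 clones (horizontal axis, with 95% intervals) for the member probes tested and for the genes of the mitotic and somatic counterparts; open points had an adjusted p of 0.05 or more. HORMAD1 and SYCP3 lie at 5.97 and 4.26, which are fitted values over a mock level below background, while the counterparts lie between -0.69 and -0.18.

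Within the control clones, 5 of the 10 genes were tested, and 3 (HORMAD1, SYCP3 and REC8) were called. HORMAD1 and SYCP3 again passed the filter only through their treated arrays. Over all 24631 probes tested, 5.2% were called and 3.84% were called higher. REC8 changed by 2.06 ± 0.23 (SE of the unpaired fit, n = 3 clones per condition, limma adjusted p = 0.0064). Its call was lost without control clone 1 (adjusted p = 0.0805) and without control clone 2 (adjusted p = 0.0767), although the change was then 2.08 and 2.29. Probes 2 and 3 of STAG3 were called as well, at 2.07 ± 0.19 and 2.94 ± 0.52 (adjusted p = 0.0032 and 0.0298), the third from 1 of 3 mock arrays well above background. Both lost their calls without control clone 1 (adjusted p = 0.0575 and 0.218) and without control clone 2 (adjusted p = 0.0712 and 0.104), while with any 1 control clone left out their changes were 1.99 to 2.22 and 2.31 to 3.52. On slide 2, which held mock control clone 3 and the 3 treated control clones, HORMAD1 was at least 10.9-fold higher and SYCP3 at least 3.35-fold higher after treatment, over a mock array below background, and REC8 was 2.45 higher on the log2 scale. With clone and slide both as blocks none of the 24631 probes was called in this comparison, since the change then rests on clone 3 alone.

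Within the TET1 knockdown clones, 4 of the 10 genes were tested, and 2 (HORMAD1 and SYCP3) were called. Both passed the filter only through their treated arrays, so their count does not stand for the members. Over all 25385 probes tested, 2.05% were called and 2.04% were called higher. REC8 rose in each of the 3 clones, by 1.79 ± 0.41 on average, and did not pass the test (adjusted p = 0.142). With the clone as a block, its adjusted p was 0.0245, and without knockdown clone 2 it was 0.0313 at a change of 1.69. Probe 2 of STAG3 was called at 1.81 ± 0.21 (adjusted p = 0.0079), and probe 3, below background in all 3 mock knockdown clones, was at least 4.45-fold higher (adjusted p = 0.0048). They lost these calls when any 1 of the 3 knockdown clones was left out, with adjusted p of 0.193, 0.0532 and 0.157 for the second probe and 0.0828, 0.0738 and 0.0511 for the third without clones 1, 2 and 3, while the change of the second probe was then 1.69 to 1.93 and the fitted change of the third 2.70 to 3.45, against 3.06 with all clones. The second HORMAD1 probe lost its call without clone 1 (adjusted p = 0.0556). On slide 1, with its 3 mock and 2 treated knockdown arrays, HORMAD1 was at least 14.8-fold and SYCP3 at least 8.78-fold higher after treatment, and REC8 was 1.41 higher on the log2 scale.

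The difference in response between knockdown and control clones was tested directly as an interaction. None of the 5 members tested was called, and 0.0367% of the 27281 probes were (10 probes, and 672 at an unadjusted p under 0.05). REC8, detected in both conditions, had an interaction of -0.28 ± 0.50. For SYCP3 the fitted interaction was 1.40 ± 0.36 (adjusted p = 1.0) and for HORMAD1 0.04 ± 0.40, but both genes were below background in the mock clones of both arms, so their responses are known only as bounds and their difference was not measured. For these genes the treated level alone is measured on both sides.

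The knockdown and control clones were then compared at the same treatment, in which no gene of the set was called. In mock clones 3 of the 10 were tested (REC8, STAG3 and SYCP1), with changes between -0.27 and 0.12 by their brightest probes, and 0.137% of 24750 probes were called (34 probes, and 2762 at an unadjusted p under 0.05). The second probe of STAG3 was 0.43 ± 0.20 higher in mock knockdown clones and was not called (limma adjusted p = 0.474), although the arms did not overlap. After 5-aza-dC 4 were tested, and 0.104% of 24992 probes were called (26 probes, and 4811 at an unadjusted p under 0.05). SYCP3 was 0.99 ± 0.29 higher on the log2 scale in treated knockdown clones than in treated control clones (limma adjusted p = 0.197), with no overlap between the 3 arrays of each arm. The difference was 0.59 (adjusted p = 0.469) with slide as a block and 0.63 (adjusted p = 0.179) after normexp with quantile normalization. REC8 was -0.55 ± 0.36 (adjusted p = 0.408), and turned to 0.21 with slide as a block. Without knockdown clone 2, SYCP3 (1.19, adjusted p = 0.0216) and REC8 (-0.93, adjusted p = 0.0228) were called, along with 7794 of all probes. The remaining treated knockdown arrays were then all on slide 1 and the treated control arrays all on slide 2, so slide and knockdown cannot be told apart in that setting.

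The other genes of the pathway were read from lists of known members. Of 10 genes listed as other synaptonemal complex and axis genes, 3 were tested: SYCE2, FKBP6 and STAG3L4, a pseudogene copy of STAG3 counted in this list. Of these, 1 was called over all clones, where 7.29% of all 27281 probes tested were called higher. It was FKBP6, a chaperone of meiotic cells, at least 3.04-fold higher (limma adjusted p = 7.1e-05). The other 7 had probes but were well above background on too few arrays to be tested. SYCE3, TEX12, SIX6OS1 and HORMAD2, the paralogue of HORMAD1, stayed below background throughout. Of 22 other meiotic recombination genes, 21 were on the array and 14 were tested. Of these, 4 were called, all higher, where 7.29% of all 27281 probes tested were called higher. With the array median as the scale 4 were called higher and 3 lower, where 1699 of all probes were called higher and 6836 lower. MEIOB, a single-strand DNA-binding protein of meiotic recombination, was at least 9.35-fold higher (limma adjusted p = 1.4e-07), and TEX15 at least 1.69-fold (adjusted p = 0.0010). FKBP6, MEIOB and TEX15 were below background on all 6 mock arrays, so they passed the filter only through their treated arrays. MEI1 and TEX11, detected on 3 and 1 of the 6 mock arrays, changed by 3.17 ± 0.44 and 2.69 ± 0.31 on the log2 scale. TEX11 therefore also passed the filter only with its treated arrays. The median change of the 14 was 0.25, and 0.01 with the array median as the scale.

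Some recombination genes that dividing cells also use were high in mock clones and were not called. MND1 and PSMC3IP, whose products together assist strand exchange, read 3.35 and 2.56 on average in mock clones and changed by -0.22 ± 0.12 and -0.27 ± 0.12, and TRIP13, the ATPase that remodels HORMA-domain proteins, changed by 0.36 ± 0.19 from 3.84.

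Of 15 germline programme genes, 11 were tested and 7 were called, all higher, where 7.29% of all probes tested were called higher. All 7 were well above background on fewer than 3 mock arrays, so each passed the filter only with its treated arrays. DAZL, an RNA-binding protein of germ cells, was at least 17.4-fold higher (adjusted p = 8.8e-06), and MAEL and TDRD1, both of the pathway that silences transposons through piRNAs, changed by 5.20 ± 0.56 and by at least 4.90-fold. The germ cell transcription factors SOHLH1 and SOHLH2 changed by 4.42 ± 0.47 and 3.32 ± 0.58, TAF7L by 3.01 ± 0.28, and BOLL was at least 2.28-fold higher. MAEL, SOHLH1, SOHLH2 and TAF7L were well above background on only 1 or 2 of the 6 mock arrays. STRA8, the factor that starts meiosis in response to retinoic acid, was at background on all 12 arrays, and MEIOC, which keeps germ cells in meiotic prophase, changed by 0.88 ± 0.37 (adjusted p = 0.136). DDX4, a germ cell RNA helicase, was well above background on all 12 arrays and changed by 0.38 ± 0.53 (adjusted p = 0.643). The median change of the 11 genes was 3.01, or 2.29 with the genes that were below background in mock clones set to their bounds. After normexp with quantile normalization, where a fixed offset is added to every signal, the same number was called and the median was 0.91.

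**Figure D4:**
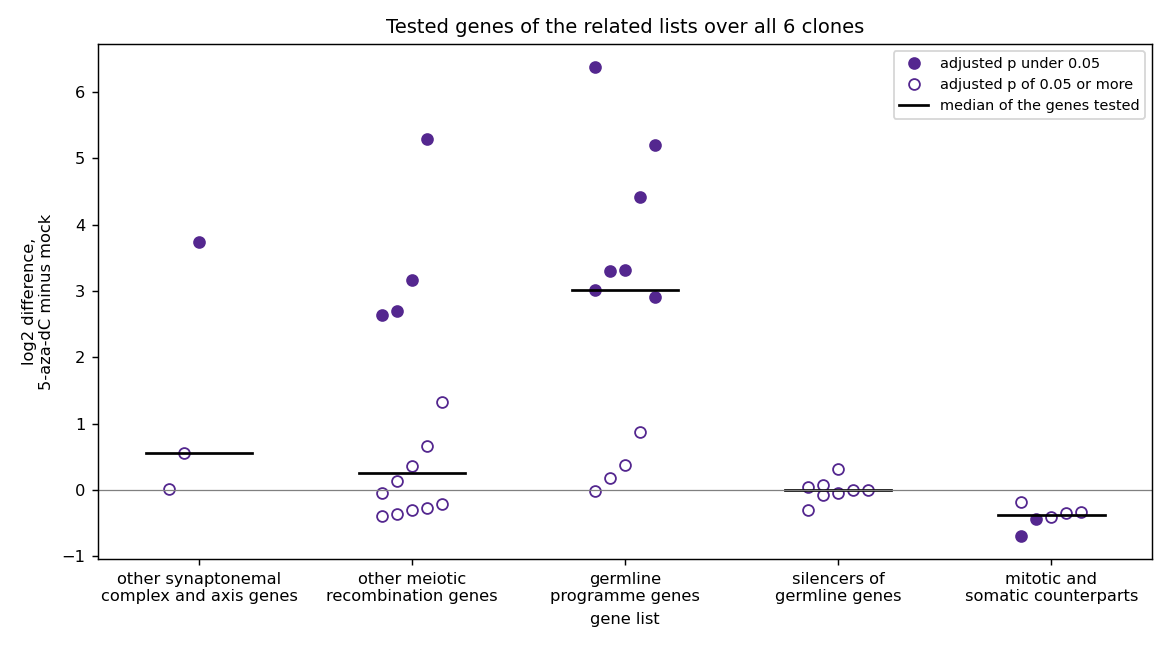
Log2 difference between 5-aza-dC and mock over all 6 clones (vertical axis) for each tested gene of the 5 related lists (horizontal axis), filled where the adjusted p was under 0.05, with a line at the median of the genes tested. The tested germline programme genes have a median of 3.01, or 2.29 with genes below background in mock clones set to their bounds. Their 7 called genes passed the filter only with their treated arrays. The tested recombination genes have a median of 0.25, and the silencers lie between -0.30 and 0.32.

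None of the mitotic and somatic counterparts was called higher. SMC3 (4.43 in mock clones), SMC1A, RAD21, STAG1, STAG2 and MAD2L1 were well above background on all 12 arrays. Of these 6, 2 were called lower after treatment, where 1624 of all 27281 probes tested were called lower. They were SMC3 (-0.44 ± 0.11, limma adjusted p = 0.0313) and STAG1 (-0.69 ± 0.15, adjusted p = 0.0159). All 6 changes were below 0, as they were with the array median as the scale and after quantile normalization, with or without normexp, while 5 of 6 were with slide as a block. The number called lower was 1 to 5 over these settings. It was 5 with the array median as the scale, where 6836 of all 27281 probes were called lower. Of 8 genes for silencers of germline genes, E2F6, MGA, MAX, PCGF6, L3MBTL2, EHMT1, EHMT2 and SETDB1, all were detected on every array and none was called, with changes from -0.30 for L3MBTL2 to 0.32 for MGA. With the array median as the scale, the median of all probes moved from -0.05 to -0.29, 1 silencer was called lower, and the share of calls that were higher fell from 55% to 19.9% (45% after quantile normalization).

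Germ cell markers were read beside these results for the whole list of 8. Its summed signal ran from 1.60 to 2.37 times the 75th percentile in mock control clones, from 1.63 to 4.58 in mock knockdown clones, from 2.06 to 3.05 in treated control clones and from 4.45 to 6.52 in treated knockdown clones, with 3 to 5 of the 8 well above background on any array. DAZL, which is on this list too, was the one marker called. TNP1 and NANOS2 were not well above background on any array, and ACR, DDX4 and TNP2 were on all 12. The part of other cells in the change of the members was not tested.

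The genes whose pattern was most like that of each called member over the 12 arrays were named by Pearson's r, as a description: the arrays fall into mock and treated groups, which each r spans. For HORMAD1 they were DNAJB3, LOC100286922 and DMRTB1 (r from 0.995 to 0.998), for SYCP3 NR0B1, DDX43 and MEST (0.991 to 0.994), and for REC8 SYTL1, KRT42P and MUC15 (0.964 to 0.965).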

How the data were processed

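Total RNA of 12 samples was labelled with Cy3 and hybridised to SurePrint G3 Human 8x60K arrays, 1 array per sample. The authors deposited the scanner output of Agilent Feature Extraction (version 10.7 in the submitters' processing notes) as background-corrected and spatially detrended intensity values per spot, with probe positions in hg19, and a series table of the same intensity values, which differed from the scanner's by at most 0.497%. The authors' own comparison used a t-test with Benjamini-Hochberg correction.

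From these, spots of a probe were averaged without control and outlier spots, log2 intensities were centred on each array's 75th percentile, and probes well above background on at least 3 arrays of a comparison were tested with limma 3.58.1 in R 4.3.3 (moderated test, two-sided, Benjamini-Hochberg over all probes tested, threshold 0.05). The precision is limited by 3 clones per group. Where every array of a group was below background, a fold change is a bound. It sets the mean of the bright group against the mean, over the dim group's arrays, of the probe's own value or, if higher, the dimmest signal that passed as well above background on that array. The p-value beside such a bound is that of the fitted difference, with dim arrays at their own values, and the bound itself was not tested. A probe above background in at least 50% of its spots counted as detected. The same labelled clone was measured with and without drug, so by the labels the replicate numbers pair these arrays. Deviations of such pairs from their group means correlated at 0.212 to 0.523, and pairs of unlike number were not compared. The main fits did not use this pairing, so their SEs are those of unpaired groups. Knockdown and control clones of the same number are different clones.

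The tests were tried on simulated data. One further gene of the counterpart list is not reported here. The members and the gene lists were chosen with earlier results of these data known. Genes named are all members, TET1, the called genes of each list (at most 5 per list and comparison by size, with exceptions chosen after their values were seen) and, per called member, the 3 most correlated genes. Alternatives tried were quantile normalization, normexp with an offset of 50, scaling to the array median, the series table, other filters, outlier spots kept, slide and clone as blocks, all arrays in 1 fit, the methods' t-test and leaving out each clone. When a clone was left out, the probes tested stayed those of the whole comparison. This last choice, the within-slide differences and the 7-letter promoter search were added after seeing the data. Promoters came from a RefSeq table of GRCh38.p14, a build other than that of the probe positions.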

Additional observations from a re-analysis of the deposited data

How the results depend on the processing

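Over all clones, 3 members were called under 14 of 16 alternatives. Without a filter on dim probes 5 were (SMC1B and SYCE1 besides), and with probes required to be well above background on every array 1 was (REC8), since HORMAD1 and SYCP3 are then not tested. That filter left 1 called member in the control clones and 0 in the knockdown clones. With a replicate block (the clone) and slide as a block, 0 members were called in the control clones, where clone 3 alone then carries the change. The replicate block alone left 3 members called in the control clones, 3 in the knockdown clones, where REC8 (1.79) joined, and 3 over all clones, and 0 in the interaction and in the comparisons of knockdown with control. It changed no other call among the member probes. Leaving out 1 clone gave 2 to 3 called members in the control clones, 2 to 3 in the knockdown clones, 3 over all clones and 0 to 2 between treated knockdown and control clones. Counting a probe as detected when its signal was positive and significant gave 8 members on every treated array, against 4.

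The first STAG3 probe reversed in the knockdown clones, to -0.22 with the array median as the scale, -0.12 with slide as a block and -0.054 with the replicate block and slide, and it ran from -0.054 (without clone 2) to 0.12 with 1 clone left out. Over all clones it was -0.048 with the array median and -0.012 with slide. REC8 between treated arms became 0.21 with slide as a block. SYCP1 over all clones ran from -0.37 to 0.19 with 1 clone left out, above 0 in 3 of these 6 settings (control clones 1 and 3, knockdown clone 3). The cause was not tested. After normexp with quantile normalization the fitted changes over all clones were 2.30 for HORMAD1, 1.14 for SYCP3, 1.03 for the third STAG3 probe and 1.74 for REC8, all called, since the offset raises every dim signal. In the methods' t-test 2 members were called in the control clones, since REC8 (adjusted p = 0.0537 after Benjamini-Hochberg) was not, and 2 in the knockdown clones.

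The count of all probes called in the control clones ran from 0 to 5923 over the alternatives, against 1282. In the knockdown clones it ran from 50 to 745, against 521, and over all clones from 1446 to 8535, against 3612. For the interaction it ran from 1 to 14, against 10, and between arms from 4 to 110 in mock clones, against 34, and from 0 to 7794 in treated clones, against 26. Signal near background limits what is known of DMC1, SPO11, SYCP1, SYCP2, SYCE1 and SMC1B.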

Other observations

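Markers of other cell types were read over all clones as a check on the cultures. Over all probes tested, 7.29% were called higher. Of 8 colorectal epithelial markers, 6 were tested, and EPCAM, an epithelial adhesion protein, and KRT19, a keratin, rose by 3.76 ± 0.65 (limma adjusted p = 0.0041) and by at least 5.66-fold (adjusted p = 0.000143). Of 6 neuroendocrine markers, 4 were tested and 3 were called higher over all clones. The fitted changes were 3.86 ± 0.59 and 2.38 ± 0.46 for CHGA and CHGB, proteins of secretory granules, and 3.33 ± 0.62 for ENO2, an enolase of neurons. Among mock clones, CHGA was well above background in 1 control clone only and CHGB in 1 knockdown clone only. CHGA and CHGB therefore passed the filter only with their treated arrays. All 3 genes were called within the control clones, where CHGA averaged 0.83 after treatment. Within the knockdown clones 2 markers were tested and none was called: CHGA was below background on all of their arrays (-4.52 on average after treatment), CHGB changed by 1.08 ± 0.57 (adjusted p = 0.642) and ENO2 by 3.15 ± 0.94 (adjusted p = 0.316). The interaction was not called for any of the 4 (CHGA -4.30 ± 1.18, limma unadjusted p = 0.0043, and CHGB -2.61 ± 0.93, unadjusted p = 0.018). Of all 27281 probes tested, 672 had an unadjusted p under 0.05. With CHGA below background on every knockdown array, its response there and the difference between arms were not measured. CHGB was below background in all mock control clones, so its response in that arm is known only as a bound. Summed over the list, the neuroendocrine markers ran from 4.64 to 9.20 times the 75th percentile in treated control clones and from 2.70 to 3.62 in treated knockdown clones. Of 5 fibroblast markers, 3 were tested and COL1A1 rose by 1.99 ± 0.35, while LUM changed by 2.19 (adjusted p = 0.119) and COL3A1 by -1.06 ± 0.79 (adjusted p = 0.373). DCN was well above background on 1 of the 12 arrays and COL1A2 on none. None of the 4 leukocyte markers on the array was called.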
